A study of Mus musculus with 5 samples.

Results

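Megakaryocyte progenitors (MkPs) were read from single-cell RNA profiles of Lin-kit+ bone marrow, the fraction that lacks the surface markers of mature blood lineages, carries c-kit and holds the progenitors of the myeloid and erythroid lineages. A cell was taken as a MkP when at least 1 unique molecular identifier (UMI, the tag that counts 1 captured mRNA molecule) came from each of at least 3 of 7 megakaryocyte genes, Pf4, Gp9, Gp5, Ppbp, Itga2b, Treml1 and Rab27b, and when fewer than 3 of 6 erythroid genes, Klf1, Car1, Ermap, Aqp1, Epor and Blvrb, had a UMI. The rule kept 158 of 11581 Lin-kit+ cells, out of 12893 cells in the whole series. These 13 genes chose the cells, so their levels are a description of the choice and were not tested.

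All cells came from the marrow of 20-week-old mice of the strain Fgd5CreERT2/+Rosa26Tomato/+, with no treatment named for any group. In this strain ZsGreen and the inducible Cre are expressed from Fgd5, a gene expressed mainly in hematopoietic stem cells (HSCs) within the marrow. ZsGreen thus reports Fgd5 without Cre activity, and reporter-positive below means positive for ZsGreen. The Tomato reporter at Rosa26 needs Cre to be expressed. The 3 Lin-kit+ libraries were sorted as Lin-CD45.2+c-kit+ and are called a, b and c here, with 1339, 4095 and 6147 cells. The 2 reporter-positive libraries were sorted in addition for ZsGreen, and one of them for the HSC gate Sca1+CD150+CD48neg, with 793 cells (Fgd5+) and 519 cells (HSC-Fgd5+). Cells of the table carry a barcode suffix and no sample name: the reporter-positive libraries were told by their number of cells, the titles and source names of that pair disagree on which had the HSC gate, and a, b and c could not be matched to single titles. Whether the libraries are different mice or loadings of 1 cell suspension is not given in the sources used here, so the tests below measure the spread between libraries, which may be technical.

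MkPs are the committed precursors of megakaryocytes, the large polyploid cells of the marrow that extend proplatelets into the blood and release platelets. Thrombopoietin drives their growth, and GATA1, FLI1, RUNX1 and NF-E2 switch on the genes for platelet receptors, alpha granule proteins and the cytoskeleton of the platelet. The erythroid lineage uses GATA1 as well but depends on KLF1, which opposes FLI1, so the 2 lineages are usually told apart by the balance of these factors.

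Because GATA and ETS factors such as GATA1 and FLI1 are known regulators of the genes that define the cells, the 250 bases upstream of the RefSeq start are shown for 3 genes of the rule (build GRCm38.p6, 5′ to 3′ in the direction of the gene). Capitals mark GATA hexamers (AGATAA or, with T in place of the leading A, TGATAA, and either of them ending in G) and ETS hexamers (AGGAAG or, with C in place of the leading A, CGGAAG), searched on both strands, so that a match on the opposite strand reads as its reverse complement. Pf4, the gene of platelet factor 4, lies on the plus strand with its window at chr5:90772185-90772434, Gp9, the gene of the GPIX subunit of the von Willebrand factor receptor, lies on the plus strand at chr6:87777820-87778069, and Gp5, the gene of the GPV subunit of that receptor, lies on the minus strand at chr16:30310782-30311031.
Pf4: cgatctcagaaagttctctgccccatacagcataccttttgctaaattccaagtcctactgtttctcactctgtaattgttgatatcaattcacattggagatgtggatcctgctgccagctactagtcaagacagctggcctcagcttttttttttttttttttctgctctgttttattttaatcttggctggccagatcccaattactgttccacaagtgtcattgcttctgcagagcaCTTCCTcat
Gp9: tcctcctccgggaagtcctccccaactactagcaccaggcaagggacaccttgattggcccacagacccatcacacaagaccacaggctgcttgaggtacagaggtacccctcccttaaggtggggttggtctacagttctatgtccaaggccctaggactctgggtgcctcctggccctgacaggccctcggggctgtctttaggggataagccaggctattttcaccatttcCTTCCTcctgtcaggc
Gp5: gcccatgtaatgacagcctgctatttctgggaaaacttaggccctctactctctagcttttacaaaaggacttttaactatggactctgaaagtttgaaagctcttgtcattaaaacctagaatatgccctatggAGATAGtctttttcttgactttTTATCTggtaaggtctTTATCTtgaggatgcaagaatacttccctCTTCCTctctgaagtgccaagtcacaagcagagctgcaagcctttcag
Counting back from -1, the base before the start, the ETS hexamer of Pf4 began at -9 and that of Gp9 at -16, both on the opposite strand, and neither window held a GATA hexamer. The Gp5 window held 3 GATA hexamers, at -115, -93 and -77, and 1 ETS hexamer at -48. Of the 6 rule genes with a window, 1 held a GATA hexamer and 4 an ETS hexamer, and the windows of Ppbp and Treml1, not shown, held neither. Over all 32851 RefSeq windows of this length, 26.5% held a GATA hexamer and 39.2% an ETS hexamer, so that either kind of match is common. Among genes at least 4-fold higher in MkPs than in other Lin-kit+ cells, 111 of 154 had a window, and 24.3% of their 136 windows held a GATA hexamer and 37.5% an ETS hexamer. The corresponding shares for all 7629 tested genes with a window were 17.0% and 48.9%, and for genes at least 4-fold lower in MkPs 27.2% and 48.2%. For GATA hexamers the raised genes thus lay above all tested genes and below the lowered genes. A match describes the letters of the window and not a bound site.

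Pf4 was the most abundant of the 7 megakaryocyte genes in the selected cells. Its level was 7163, 7263 and 5998 UMIs per 1000000 UMIs (CPM) in the summed MkPs of libraries a, b and c, against 17.2, 32.1 and 16.8 CPM in the summed other Lin-kit+ cells. Gp9 reached 213, 271 and 184 CPM against 5.3, 7.0 and 6.5 CPM. Itga2b, the CD41 chain of the fibrinogen receptor, was read at 256, 368 and 264 CPM against 9.6, 8.0 and 6.7 CPM. In each of these genes the lowest MkP library stood far above the highest library of other cells, which the choice of cells fixes. The least abundant of the 7 was Gp5, at 14.2, 37.6 and 17.2 CPM, with 16 UMIs over all MkPs. Ppbp, the chemokine precursor CXCL7 of the alpha granule, was at 35.5, 45.1 and 84.2 CPM and almost unread elsewhere, with 8 UMIs over 11423 other cells. Treml1, a receptor of the alpha granule membrane, lay between 150 and 187 CPM and Rab27b, a GTPase of granule transport, between 156 and 293 CPM.

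Of the erythroid genes that the rule limited, Klf1 was read at 12.6 CPM over all MkPs and 193 CPM over the erythroid progenitors defined by the same 13 genes. Car1 (carbonic anhydrase 1) was at 17.6 against 3873 CPM, and Ermap was not read at all in MkPs. Aqp1, a water channel, was the exception at 82.9 CPM in MkPs, above the 27.5 CPM of all other Lin-kit+ cells and below the 387 CPM of erythroid progenitors. Reporter-positive cells carried part of the megakaryocyte set at a lower level, with Pf4 at 159 and 64.6 CPM and Itga2b at 40.5 and 34.6 CPM in the Fgd5+ and HSC-Fgd5+ libraries. The rule would have kept 32 of 793 (4.04%) and 18 of 519 (3.47%) cells of these libraries, which were not counted as members.

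**Figure D1:**
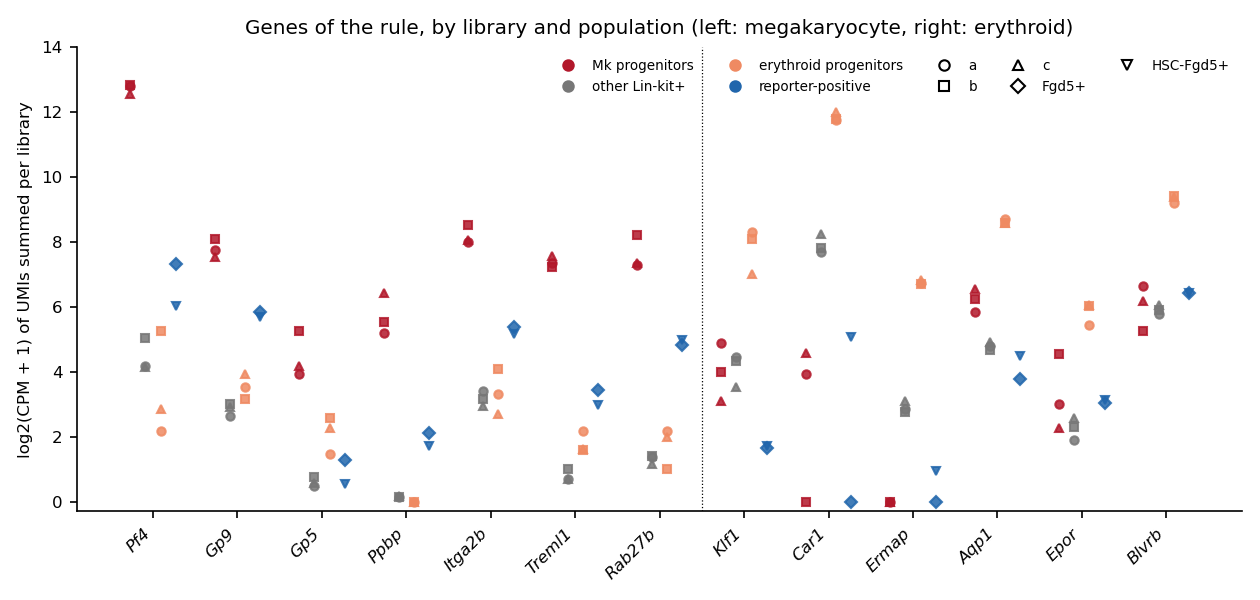
Level of the 13 genes of the rule in each library, as log2(CPM + 1) of the UMIs summed over MkPs, other Lin-kit+ cells, erythroid progenitors and all reporter-positive cells; colours mark the population and symbols the library, and there are no error bars. Pf4 is the highest megakaryocyte gene in MkPs (5998 to 7263 CPM), Car1 is the highest erythroid gene in erythroid progenitors (3434 to 4124 CPM), and reporter-positive libraries lie between MkPs and other Lin-kit+ cells for the megakaryocyte genes.

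MkPs made up 1.79% (95% Wilson interval 1.21 to 2.65) of library a, 0.879% (0.636 to 1.21) of library b and 1.59% (1.31 to 1.94) of library c, a mean of 1.42% ± 0.480 (SD, n = 3). The interval of library b lay below that of c and met that of a at its edge. Intervals cover counting error only. With all cells thinned to 1500 UMIs the mean share was 0.522% ± 0.113 (SD, n = 3). Asking for 2 of the 7 genes gave 2.97% and asking for 4 gave 0.695%.

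Most members stood near the threshold. Among the 158 cells, 84 had 3 of the 7 genes, 42 had 4, 24 had 5, 8 had 6 and none had all 7, and 155 Lin-kit+ cells with 2 of the genes lay just outside. Pf4 was at 3919 CPM in the members with 3 genes and at 1327 CPM in those 155 cells, Treml1 at 91.0 and 37.9 CPM, and Itga2b at 202 and 170 CPM. The split on these genes fixes that order. The cells just outside were counted with the other cells in every comparison. Median Pf4 rose with the number of genes detected, from 25.2 UMIs per 10000 in members with 3 genes to 52.4, 71.3 and 212 with 4, 5 and 6. Their median depth rose too, from 3932.5 to 4367, 4767 and 5267 UMIs per cell, and its part in the number of genes detected was not tested. Single cells spanned the range from 10 members with no Pf4 UMI to 1 with 379 per 10000, and the library medians of 33.0, 51.1 and 47.0 per 10000 were close to each other beside that range.

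At equal depth, Pf4 was detected in 84.8% of MkPs, 1.16% of other Lin-kit+ cells and 1.09% of erythroid progenitors, and without thinning in 93.7%, 2.08% and 3.21%. The share in erythroid progenitors, a lineage that should lack Pf4, is taken as a rough background only. These cells had to have fewer than 3 of the 7 genes, Pf4 among them, so the rule limits that share. F2rl2, the thrombin receptor PAR3, was no gene of the rule and was found after thinning in 16.5% of MkPs, 0.160% of other cells and 0 of 640 erythroid progenitors, which allows a share of cells with a UMI of up to 0.469%. Without thinning the shares of F2rl2 were 32.3%, 0.350% and 0.458%. Median depth was 4209.5 UMIs in MkPs, 5184 in other cells and 4865 in erythroid progenitors, and 174 other cells, 15 of which were erythroid, fell below 1500 UMIs and were left out of the thinned shares.

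A group of 9 MkPs stood apart by granulocyte transcripts. In these cells 1.66% to 27.7% of UMIs came from a list of 20 granulocyte and monocyte genes, whereas no other member exceeded 0.691%. They held 9841 of the 10653 UMIs (92.4%) that this list had in MkPs, with a median depth of 11513 UMIs against 4097 in the remaining members. Of the 9, 8 came from library c, 1 from library a and 0 from library b, and 4 were called doublets by Scrublet, which called 5 MkPs in all, each of them in library c. In addition 1 member held 162 of the 170 UMIs of Prss34, a basophil protease. Because of these cells the summed list reached 19523 CPM in library c against 2352 CPM in a and 880 CPM in b, and 1430, 634 and 880 CPM without them. Whether each is 2 cells read as 1 was not tested, and the main results on granulocyte genes are given with and without them. Cell barcodes found in more than 1 library numbered 62 of 12830, and 2 belonged to members.

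**Figure D2:**
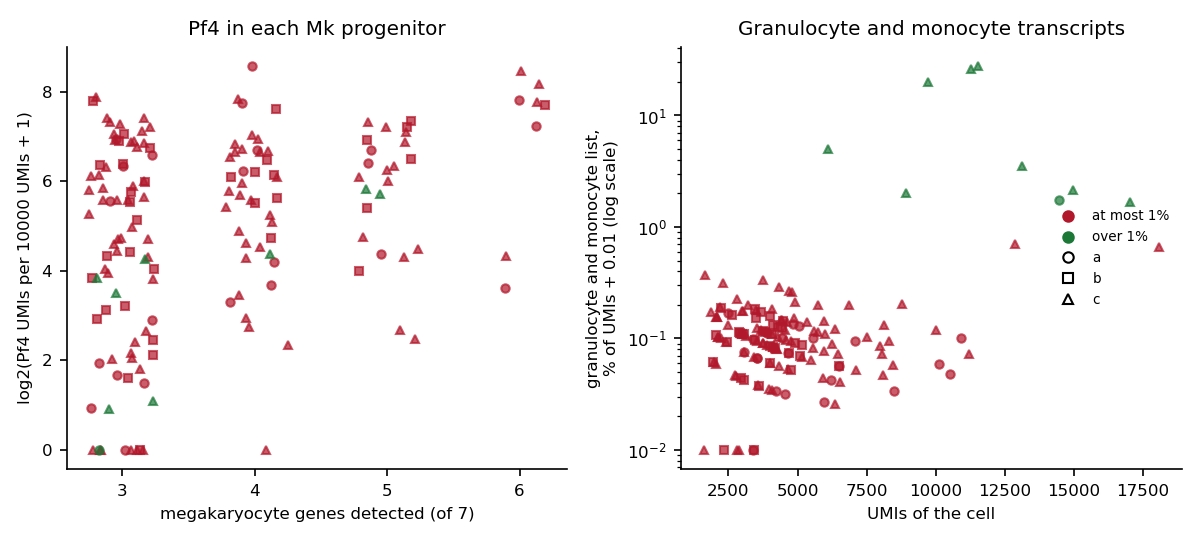
Left, log2(Pf4 UMIs per 10000 + 1) of each MkP by the number of the 7 genes detected, with points spread sideways for visibility; right, percent of UMIs from the granulocyte and monocyte list (log axis, 0.01 added) by UMIs of the cell. Symbols mark the library and green the 9 cells over 1%, of which 8 are from library c; the remaining 149 cells do not exceed 0.691%.

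Across the other genes, MkPs were compared with all other Lin-kit+ cells of the same library, on UMIs summed per library and class. An adjusted p under 0.05 was reached by 1707 (17.3%) of the 9860 genes that entered the fit, in 460 cases (4.67%) with a higher and in 1247 (12.6%) with a lower level in MkPs. Scaling by library totals in place of TMM moved the median of all genes by 0.317 on the log2 scale and gave 1105 higher and 671 lower. Of the calls, 460 were higher and 671 lower by both scalings. Library c held 98 of the 158 cells, and without it 345 genes passed. These genes were read in the same cells that the rule chose, so the tests measure how steady a difference was across the 3 libraries, not the choice of the cells.

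Of genes with at least 100 UMIs, those with the largest increase included F2rl2, Sdpr, Vwf, Pde5a, Slc14a1, Nrgn, Cttn and Mycn, with fitted log2 differences from 6.82 ± 0.35 (SE) for F2rl2 to 4.03 ± 0.40 for Mycn. F2rl2 was at 107, 135 and 80.4 CPM in MkPs of a, b and c and at 0.71, 1.02 and 0.53 CPM in the other cells. Sdpr (cavin 2, a phosphatidylserine-binding protein abundant in platelets) was at 249, 263 and 218 CPM against 1.83, 2.70 and 1.94 CPM, a log2 difference of 6.47 ± 0.23. The groups did not overlap for either gene, and every MkP library was more than an order of magnitude above every library of other cells. Slc14a1, the urea transporter of red cells, was at 171, 226 and 224 CPM against 5.88, 6.20 and 7.40 CPM.

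The 10 lower genes named by the rule, which ranks by fitted value, had no UMI in MkPs and can be given only as bounds. Jchain, the joining chain of polymeric immunoglobulin, had 0 UMIs in all MkPs and was at least 48.4-fold lower than in other Lin-kit+ cells, taking 3 counts over the summed MkPs as the floor. Dntt, the terminal transferase of early lymphoid cells, was at least 18.9-fold lower, and Lrg1, Wfdc17, Sema4a and Vcam1 were at least 14.3-, 9.56-, 8.13- and 7.0-fold lower. Library c set much of these bounds: without it that of Jchain was 18.6-fold. Cnn3, Ccl3 and Siglece had floors of 5.32, 4.90 and 4.33, and the predicted gene Gm15987 was the remaining member of this group.

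Platelet receptors and adhesion molecules were mostly higher: of 17 tested genes of a list of 27, 16 were higher and 0 lower, with a median log2 difference of 3.03 beside -0.14 for all genes tested. Over all genes tested 4.67% were higher and 12.6% lower, which stands beside each list count against other Lin-kit+ cells below. Genes such as F2rl2 and Clec1b entered the fit through their level in MkPs and had to differ. With no filter, 17 of the 24 receptor genes in the table were higher in MkPs of every library and 2 lower, and DESeq2 called 16 of 20. Without library c, 5 of 16 passed. The thrombin receptor gene F2r (PAR1) was at 99.5, 67.7 and 82.3 CPM against 3.45, 4.42 and 4.16 CPM, and Lat, the adaptor below the collagen receptor GPVI, at 92.4, 158 and 174 CPM against 10.9, 12.6 and 11.3 CPM. Cd9, the tetraspanin of the platelet surface, was already common in other cells and was at 824, 804 and 1008 CPM against 148, 164 and 194 CPM. Other members named here and below outside the strongest of each list were chosen after their values were seen. Clec1b, the podoplanin receptor CLEC-2, was at 107, 45.1 and 32.5 CPM against at most 0.61 CPM, a log2 difference of 6.22 ± 0.52. Gp1bb, the beta chain of the von Willebrand factor receptor, rested on 10 UMIs. Pecam1 alone did not pass (log2 difference -0.62 ± 0.38, adjusted p = 0.299, edgeR).

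Of 12 tested genes for granule cargo, 9 were higher and 2 lower, with a median of 2.54. Genes such as Vwf entered the fit through their level in MkPs and had to differ. With no filter, 9 of the 20 cargo genes with data were higher in MkPs of every library and 6 lower, and 4 had no UMI in MkPs. Vwf, von Willebrand factor, was at 64.0, 90.2 and 76.5 CPM against 1.93, 1.13 and 1.04 CPM, a log2 difference of 5.67 ± 0.36. Nrgn, a calmodulin-binding protein whose mRNA is abundant in platelets, was at 263, 301 and 105 CPM against 15.5, 10.8 and 5.29 CPM. Serpine2, the thrombin inhibitor protease nexin-1, was at 178, 211 and 187 CPM against 17.9, 19.1 and 21.4 CPM, and the metalloproteinase inhibitor gene Timp3 and the factor V carrier gene Mmrn1 had log2 differences of 6.40 ± 0.53 and 5.64 ± 0.46. The lower pair was F13a1, the coagulation factor XIII A chain, which monocytes also make (0, 0 and 26.8 CPM, or 0, 0 and 9.30 CPM without the granulocyte-rich cells, against 186, 184 and 185 CPM), and Srgn, the core proteoglycan of granules in many myeloid cells (log2 difference -0.65 ± 0.09). Pf4 and Ppbp, the main chemokines of the granule, were in the rule and are not counted here.

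The machinery that builds and moves granules did not rise as a group. Of 24 tested genes, 3 were higher and 6 lower, with a median of 0.06, and by library totals 5 were higher and 4 lower. Rab38, a GTPase of lysosome-related organelles, was at 156, 97.7 and 149 CPM against 39.1, 39.1 and 41.9 CPM, and Slc35d3, needed for platelet dense granules, had a log2 difference of 3.86 ± 0.70. Rab27a, the relative of the rule gene Rab27b, went the other way at 7.11, 7.52 and 21.0 CPM against 41.3, 46.1 and 45.8 CPM. Lyst had no UMI in MkPs, and Cd63, a granule membrane tetraspanin shared with neutrophil and basophil lineages, was lower by a log2 difference of -1.29 ± 0.12.

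Regulators of the lineage were higher for 12 and lower for 4 of 29 tested genes, with a median of 0.52. Meis1, a homeobox factor shared with HSCs, was at 192, 158 and 145 CPM against 18.4, 20.4 and 19.9 CPM. Mef2c was at 568, 804 and 670 CPM against 96.9, 102 and 104 CPM. For both genes every MkP library lay above every library of other cells. Gata1 rose by a log2 difference of 2.29 ± 0.26, Gata2 by 1.79 ± 0.22, Gfi1b by 2.53 ± 0.29, Fli1 by 1.83 ± 0.16 and Nfe2 by 0.87 ± 0.17. Runx1 did not pass, at 21.3, 45.1 and 65.0 CPM against 37.6, 26.8 and 23.4 CPM (adjusted p = 0.0712, edgeR), and its direction turned without library c. The 4 lower genes were Irf8, Spi1, Ikzf1 and Myb, of which Irf8 and Spi1 drive monocytes and granulocytes, Ikzf1 lymphoid development and Myb the immature state. Irf8 was at 0, 0 and 61.2 CPM (0, 0 and 23.3 CPM without the granulocyte-rich cells) against 449, 414 and 406 CPM. Mycn, a MYC family factor outside the list, was at 78.2, 75.2 and 28.7 CPM against 3.75, 3.02 and 1.60 CPM.

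Among 16 tested genes of thrombopoietin signalling, 2 were higher and 3 lower, with a median of -0.34. Stat5a, a transcription factor of the pathway, was among the higher genes (log2 difference 1.24 ± 0.27), and Csf2rb, Il6st and Sh2b3, the common beta cytokine receptor, gp130 and the inhibitor LNK, were lower on 5, 2 and 1 UMIs in MkPs. The lower genes entered the fit through their level in other Lin-kit+ cells. Jak2, the kinase of the pathway, was at 0, 15 and 26.8 CPM against 7.91, 9.38 and 8.58 CPM and did not pass (adjusted p = 0.18, edgeR).

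Cytoskeletal genes were split. Of 25 tested, 12 were higher and 4 lower, with a median of 0.83. Plek, the platelet protein kinase C substrate pleckstrin, was at 206, 323 and 308 CPM against 15.6, 18.7 and 17.2 CPM, and Rap1b, the GTPase that activates platelet integrins, at 178, 308 and 258 CPM against 44.5, 37.3 and 32.0 CPM. Cttn, the actin regulator cortactin, and Tuba8, an alpha tubulin, had log2 differences of 4.03 ± 0.32 and 2.09 ± 0.19. The integrin linkers Tln1, Vcl, Zyx, Fermt3 and Lims1 all passed as higher, between 0.83 and 1.69. The lower genes were Tuba4a, Rasgrp2, Rhoa and Cdc42, between -0.86 and -0.48, and by library totals 1 gene of the list remained lower.

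For platelet enzymes the count was 11 higher and 1 lower of 17 tested, with a median of 2.32. Here too genes such as Pde5a entered the fit through their level in MkPs. With no filter, 12 of the 20 enzyme genes with data were higher in MkPs of every library and 2 lower. The cyclic GMP pathway was represented by both subunits of soluble guanylate cyclase, Gucy1a3 (log2 difference 5.37 ± 0.56) and Gucy1b3 (6.52 ± 1.03, on 13 UMIs), and by the phosphodiesterase Pde5a (4.69 ± 0.48). Tbxas1, thromboxane synthase, was at 114, 128 and 101 CPM against 13, 12.6 and 12.2 CPM, and Ptgs1, cyclooxygenase 1, rose by 0.90 ± 0.21. Alox5ap, the partner of the leukotriene enzyme 5-lipoxygenase and a gene of granulocytes, was lower at 163, 180 and 260 CPM against 389, 393 and 420 CPM.

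**Figure D3:**
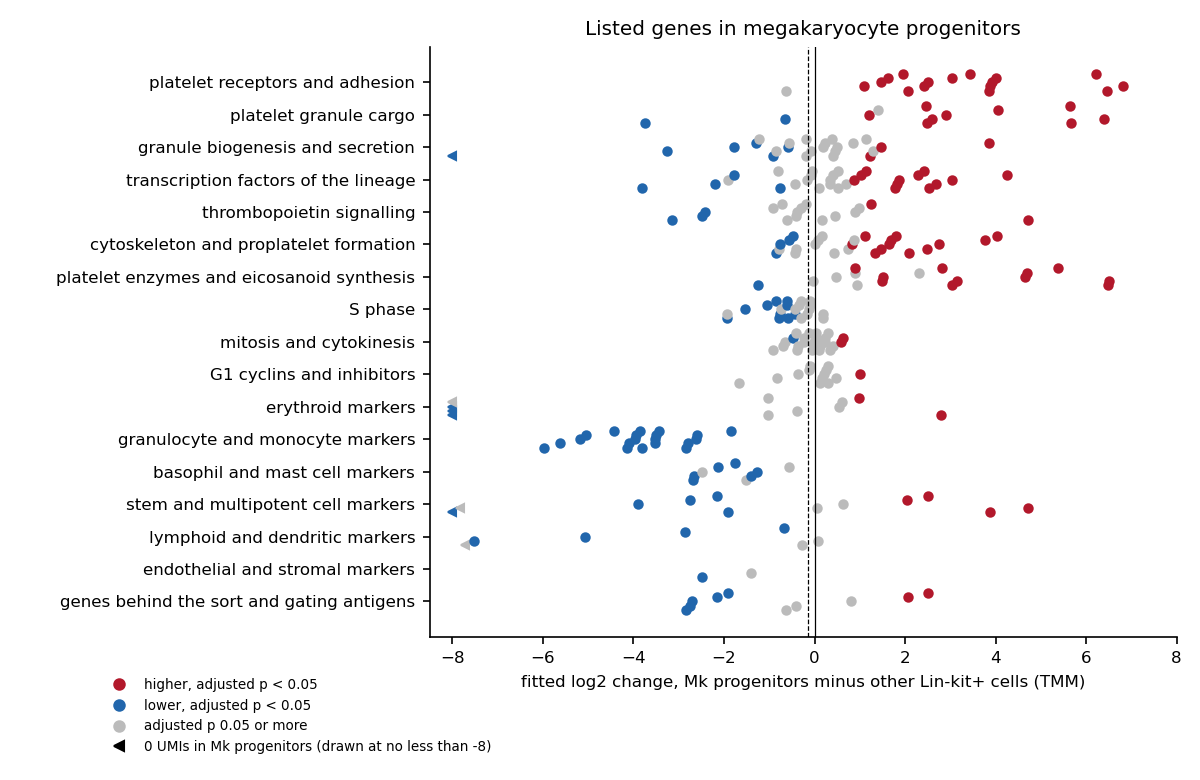
Fitted log2 difference between MkPs and other Lin-kit+ cells for every tested gene of the lists (MkPs minus other cells, TMM scaling), 1 point a gene; red and blue passed an adjusted p of 0.05, grey did not, triangles had 0 UMIs in MkPs and are drawn at -8 or above, and the dashed line is the median of all genes tested (-0.14). Receptors (16 of 17 higher), enzymes (11 of 17) and cargo (9 of 12) lie to the right, and all 20 granulocyte and monocyte genes to the left. Some genes of the first 3 lists entered the fit through their level in MkPs and had to differ. By library totals S phase has 1 higher and 3 lower and mitosis 6 higher and 0 lower.

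Cell cycle genes depended on the scaling. Of 22 S phase genes 10 were lower and 0 higher, but by library totals 3 were lower and 1 higher, and by DESeq2 2 were lower. Rrm2, the small subunit of ribonucleotide reductase, was at 42.6, 52.6 and 117 CPM in MkPs against 224, 245 and 285 CPM, and it was the gene of the list with the largest fall (log2 difference -1.93 ± 0.17). Among 24 mitosis genes Mki67 (0.64 ± 0.16) and Cenpf (0.59 ± 0.19) were higher and Birc5 (-0.47 ± 0.14) lower, while by library totals 6 were higher and 0 lower, and by DESeq2 or without library c none passed. With the rule on thinned cells 0 were higher and 5 lower, with a median of -0.75 against -0.02 in the reported fit, so no direction is given for this list. The summed mitosis list was at 1499, 2150 and 2401 CPM in MkPs and at 1611, 1588 and 1711 CPM in other cells, so library a went against b and c. Per cell, mitosis genes took 0.174% of UMIs in MkPs and 0.147% in other cells on average, higher in 2 of 3 libraries, while the median member had less than the median other cell in all 3 libraries, at 0.0213%, 0.0725% and 0.0714% of UMIs against 0.0824%, 0.0859% and 0.0908%. The mean did not pass (exact two-sided sign permutation p = 0.5, where 0.25 is the smallest that 3 libraries allow). Ccnd2, a D cyclin of G1, was higher at 355, 331 and 298 CPM against 120, 128 and 134 CPM (log2 difference 1.0 ± 0.13).

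Markers of granulocytes and most markers of lymphoid cells were low, and those of the erythroid lineage were mixed. All 20 granulocyte and monocyte genes were lower in MkPs, with and without the 9 granulocyte-rich cells. S100a8, a subunit of calprotectin, was at 99.5, 195 and 7444 CPM with them and at 111, 195 and 244 CPM without them, against 26910, 32123 and 32994 CPM in other cells. At equal depth S100a8 was found in 30.4% of MkPs and in 27.3% of erythroid progenitors (61.4% and 61.5% without thinning), a level also met in cells that should lack it. Of 9 basophil and mast cell genes 6 were lower, of 7 lymphoid and dendritic genes 4 were lower, and Lepr was the lower of 2 stromal genes. Cd74, the invariant chain of MHC class II, was at 7.11, 7.52 and 0 CPM against 398, 376 and 369 CPM. Nkg7, of the same list, stayed abundant at 589 to 611 CPM in MkPs against 713 to 801 CPM in other cells. It was at 211 to 314 CPM in erythroid progenitors and 18.5 to 39.1 CPM in reporter-positive cells. Erythroid markers gave 2 higher and 3 lower of 11, and 2 higher and 0 lower by DESeq2, with no block, or without library b or c. Their median log2 difference was -1.03 beside -0.14 for all genes tested. With no filter, 2 of the 16 genes with data were higher in MkPs of every library and 7 lower, and 7 had no UMI in MkPs. Their summed level was higher in MkPs, at 775, 692 and 779 CPM against 298, 339 and 368 CPM, and Car2 was the largest part of it. Rhd and Hba-a1 had no UMI in MkPs, but Hba-a1 was called higher with no erythroid limit in the rule (1.76, edgeR adjusted p = 0.0011). Dropping that limit let in 4 more cells. Hemgn, a GATA1 target shared by both lineages, rose by 2.81 ± 0.31, and Car2, carbonic anhydrase 2, was at 604, 601 and 698 CPM against 243, 228 and 300 CPM.

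The genes behind the antigens used to sort or gate progenitors gave 2 higher and 5 lower of 10. Cd9 and Slamf1 (CD150, on 12 UMIs, log2 difference 2.50 ± 0.64) were higher, although Slamf1 had no UMI in MkPs of library a. Cd48 was lower at 107, 60.1 and 51.7 CPM against 190, 188 and 201 CPM, and Cd34 at 28.4, 30.1 and 36.3 CPM against 125, 119 and 119 CPM. Ly6a (Sca1) had 2 UMIs in all MkPs (log2 difference -2.74 ± 0.78), Fcgr2b was at 7.11, 7.52 and 11.5 CPM against 51.0, 48.6 and 54.9 CPM, and Fcgr3 was lower by -2.83 ± 0.25 (-4.54 ± 0.29 without the granulocyte-rich cells). Kit itself did not pass, with 7.11, 30.1 and 30.6 CPM against 28.4, 30.3 and 27.1 CPM (adjusted p = 0.494, edgeR), and neither did Eng, CD105 (0.81 ± 0.38, adjusted p = 0.137). For stem and multipotent cell genes 4 were higher and 5 lower of 12 tested, with Esam, Slamf1 and Mecom among the higher ones.

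MkPs were next set beside the 655 erythroid progenitors of the same libraries. Of 4840 genes tested, 1018 (21%) passed, 522 (10.8%) higher and 496 (10.2%) lower in MkPs, and without library c 293 passed. Of genes with at least 100 UMIs, the largest increases included Plek, Sdpr, Serpine2 and Hmgn3, a nucleosome-binding protein. Plek was at 5.32, 4.98 and 3.79 CPM in erythroid progenitors of a, b and c, a log2 difference of 6.01 ± 0.24. Hmgn3 was at 99.5, 97.7 and 107 CPM in MkPs and 5.32, 5.98 and 3.79 CPM in erythroid progenitors. Lower genes with no UMI in MkPs were given as bounds: Hba-a1 (alpha globin) was at least 29.1-fold lower (6.32-fold without library b, which held most of its UMIs), Rhd at least 24.8-fold, Atp1b2 at least 20.5-fold and Slc25a21 at least 14.3-fold, and without library c that of Rhd was 7.92-fold.

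The regulators separated the 2 populations in part. Fli1 was at 227, 188 and 157 CPM in MkPs and 14.2, 17.9 and 16.4 CPM in erythroid progenitors, a log2 difference of 3.39 ± 0.23. Mef2c, Meis1, Runx1, Etv6 and Nfe2 were also higher, by 3.13, 2.61, 1.77, 1.75 and 0.66. Gata1 was lower in MkPs, at 85.3, 128 and 78.4 CPM against 112, 155 and 138 CPM (log2 difference -0.64 ± 0.17, adjusted p = 0.0152, edgeR), and Myb, Ikzf1 and Ldb1 were lower by -1.36, -2.0 and -1.41. Gata2 (0.26 ± 0.20, edgeR adjusted p = 0.419) and Gfi1b (-0.57 ± 0.23, edgeR adjusted p = 0.0862) did not pass, and the direction of Gata2 turned without library c. In all 7 of 19 tested regulators were higher and 4 lower, beside 10.8% higher and 10.2% lower over all genes tested.

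Kit was higher in erythroid progenitors, at 74.5, 90.7 and 63.5 CPM (log2 difference -1.47 ± 0.32). Receptors were higher for 8 of 9 tested genes, cargo for 8 of 9, enzymes for 8 of 9 and granule machinery for 5 of 12, with 0 lower in each. Over all genes tested in this comparison 10.8% were higher and 10.2% lower. Many of these genes entered the fit through their level in MkPs and had to differ, so the counts describe the fit only. DESeq2, which tested more of them, called 12 of 19, 10 of 12, 9 of 17 and 3 of 21 higher, and with no filter 16 of the 24 receptors in the table were higher in MkPs of every library and 0 lower. Ptgs1 and Tbxas1, which make thromboxane, were 4.73 and 4.30 higher on the log2 scale. In the cytoskeleton list 18 of 22 genes were higher, led by Plek, Tpm4 (4.53) and Rap1b (3.85), and Pdlim1 alone was lower. By DESeq2 11 of 26 were higher and 2 lower. Tmsb4x, which binds actin monomers, was at 10829, 11225 and 11880 CPM in MkPs against 921, 981 and 958 CPM. Its level in all other Lin-kit+ cells was close to that of MkPs, at 10178 to 10788 CPM. Mitosis genes were higher for 9 of 18 and lower for 0, with Mki67 at 0.86 ± 0.16, whereas DESeq2 called 1 of 24 and 1 of 17 passed without library c. S phase genes gave 1 higher (Tyms) and 1 lower (Cdc6) of 21. Granulocyte genes gave 8 higher and 0 lower of 12 with all members, and 1 higher and 9 lower of 12 without the 9 granulocyte-rich cells. Only MkPs were filtered for this, and the erythroid progenitors kept 14 cells over the same 1% limit. The median share of the list per cell was 0.0889% in the remaining MkPs and 0.0757% in erythroid progenitors. Because the cut was made in MkPs only, no direction is given for this list.

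**Figure D4:**
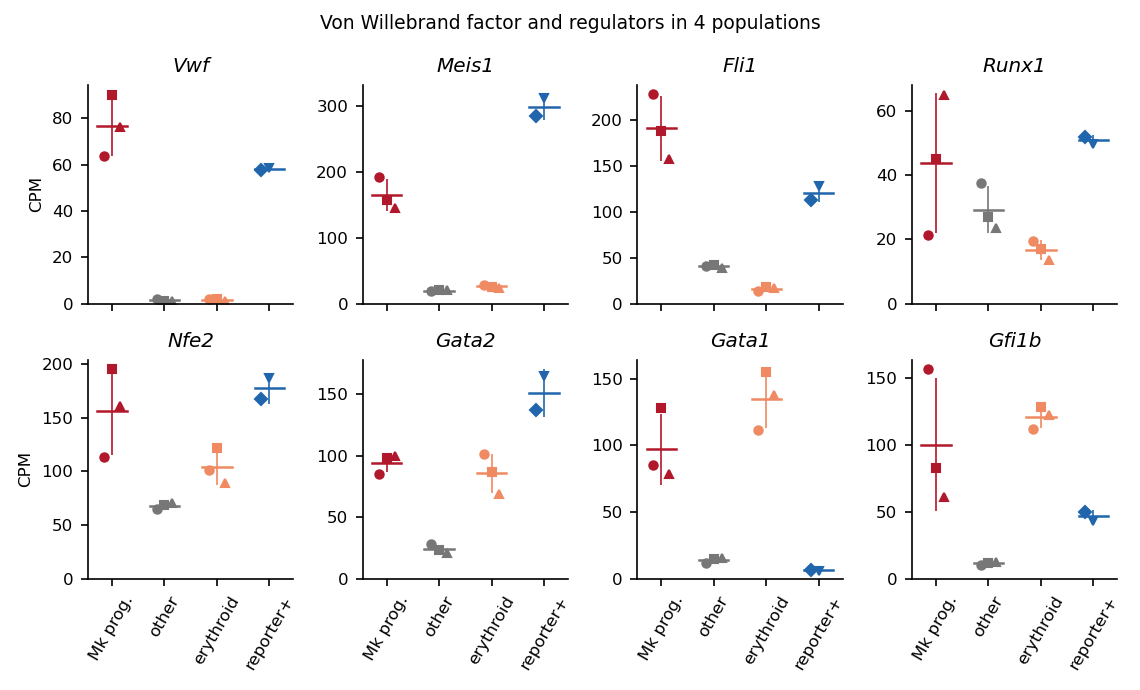
CPM of von Willebrand factor and 7 regulators in MkPs, other Lin-kit+ cells, erythroid progenitors and reporter-positive cells; each symbol is 1 library (circle a, square b, triangle c, diamond Fgd5+, inverted triangle HSC-Fgd5+), bars are the mean and lines the SD. Vwf is at 64.0 to 90.2 CPM in MkPs, 57.6 and 58.6 CPM in reporter-positive cells and at most 1.99 CPM in the others; Gata1 is highest in erythroid progenitors (112 to 155 CPM) and 6.0 to 6.24 CPM in reporter-positive cells.

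Reporter-positive cells, which are enriched for HSCs, were compared with MkPs across libraries, so that population and library cannot be told apart in these values. Of 5936 genes tested, 1886 (31.8%) passed, with 915 (15.4%) higher and 971 (16.4%) lower in MkPs. By library totals the split was 778 and 1082, and without library c 584 genes passed. Of genes with at least 100 UMIs, the largest increases were in Serpine2, Rgs10, Elane, Ms4a3 and Plek. Serpine2 was at 3.84 and 4.15 CPM in the Fgd5+ and HSC-Fgd5+ libraries against 178 to 211 CPM in MkPs (log2 difference 5.63 ± 0.23), and Rgs10, a regulator of G protein signalling, at 10.1 and 2.77 CPM against 213 to 323 CPM. Elane, neutrophil elastase, had a log2 difference of 4.89 with all members and of 1.13 ± 0.80 without the granulocyte-rich cells (adjusted p = 0.303, edgeR). Ms4a3, a membrane gene of granulocyte progenitors, had 4.73 and 3.36, and passed in both. Genes with no UMI in MkPs had the following bounds: the imprinted RNA Meg3 was at least 86.3-fold lower, Procr (EPCR, an HSC surface marker) at least 34.4-fold, Sult1a1 at least 31.4-fold, Iigp1 at least 26.2-fold and Stxbp4 at least 22.2-fold, and without library c that of Meg3 was 29.7-fold.

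Several genes with the largest differences within Lin-kit+ marrow were at similar or higher levels in reporter-positive cells. Vwf was at 57.6 and 58.6 CPM there and 64.0 to 90.2 CPM in MkPs (log2 difference 0.47 ± 0.20, adjusted p = 0.0973, edgeR). Mycn was at 191 and 204 CPM (-1.98 ± 0.28), Meis1 at 285 and 312 CPM (-0.82 ± 0.16) and Nrgn at 333 and 228 CPM (-0.45 ± 0.34, edgeR adjusted p = 0.346). Other genes named above also stood above every MkP library there. These were Tbxas1 (168 to 179 CPM), Rab38 (248 to 257 CPM), Ccnd2 (523 to 530 CPM) and Hmgn3 (143 to 148 CPM). By contrast F2rl2 was at 1.44 and 0 CPM, Slc14a1 at 20.9 and 21.7 CPM, Plek at 15.6 and 10.2 CPM and Gata1 at 6.24 and 6.0 CPM, all lower than in any MkP library. Among the regulators that were higher in MkPs, Gata1 differed most (3.92 ± 0.30), followed by Mef2c at 1.24, and Fli1 was 0.67 ± 0.17 higher. Nfe2 (-0.10 ± 0.18, edgeR adjusted p = 0.739) and Runx1 (0.11 ± 0.29, edgeR adjusted p = 0.808) did not pass, and both turned direction when 1 library was left out (a for Nfe2, c or HSC-Fgd5+ for Runx1).

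By lists, receptors gave 6 higher and 2 lower of 16 and cargo 2 higher and 3 lower of 11. Over all genes tested in this comparison 15.4% were higher and 16.4% lower, and no direction is given for cargo. Genes such as F2rl2 entered the fit through their level in MkPs and had to differ. Regulators gave 5 higher and 9 lower of 22, the lower ones including Lmo2, Lyl1, Erg, Hoxa9 and Spi1. Thrombopoietin signalling gave 0 higher and 7 lower of 10, among them the feedback inhibitors Socs2 (-4.66, 1 UMI in MkPs) and Cish (-2.64, 3 UMIs) and the receptor Kit (-2.40 ± 0.28). Only 10 of the 20 genes of this list entered the fit. Genes such as Socs2 and Cish entered it through their level in reporter-positive cells and had to be lower. Cytoskeletal genes gave 12 higher and 0 lower of 22, with Tuba8 at 71.1 to 195 CPM against 8.4 and 6.92 CPM. Both division programmes were higher: 12 of 21 S phase genes and 14 of 19 mitosis genes passed with 0 lower, with medians of 0.87 and 1.3. Without library c 4 of 20 and 5 of 21 passed, and with the rule on thinned cells 7 of 15 and 2 of 8. Mki67 was at 99.5, 226 and 184 CPM in MkPs against 50.4 and 54.0 CPM, and Cdkn1c, the p57 inhibitor of quiescent HSCs, was lower by a log2 difference of -4.23 on 1 UMI in MkPs. Granulocyte genes gave 7 higher and 0 lower of 13, and 3 higher and 1 lower of 10 without the granulocyte-rich cells. Here too only MkPs were filtered, and the reporter-positive class kept 3 cells over the 1% limit. The list of stem and multipotent cell genes gave 1 higher and 9 lower of 11. Genes such as Procr, and Cdkn1c above, also entered the fit through reporter-positive cells and had to be lower. The higher gene was Cd48, whose product the HSC gate selects against. That gate also used Sca1 and CD150, so the sort bears on the values of Ly6a, Slamf1 and Cd48. Ly6a was at 267 and 264 CPM, a log2 difference of -6.61 ± 0.36.

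**Figure D5:**
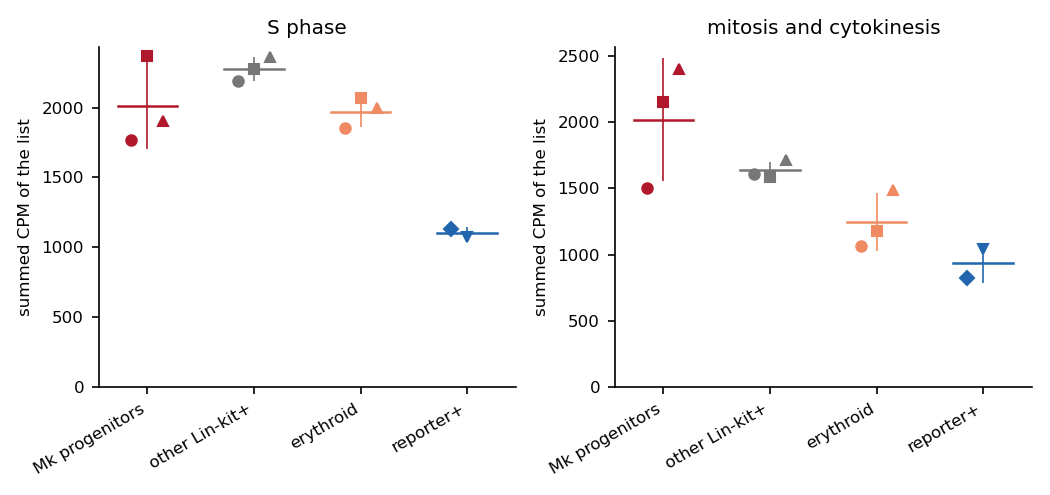
Summed CPM of the S phase list and of the mitosis and cytokinesis list in each library of MkPs, other Lin-kit+ cells, erythroid progenitors and reporter-positive cells (symbols by library: circle a, square b, triangle c, diamond Fgd5+, inverted triangle HSC-Fgd5+; bars, mean; lines, SD). The mitosis sum is 1499 to 2401 CPM in MkPs, with library a lowest, and 826 and 1043 CPM in reporter-positive cells; by library totals and by TMM the number of genes called against other Lin-kit+ cells differs.

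Within the MkPs, cells with 5 or more of the 7 genes (32 cells) were compared with those having 3 or 4 (126 cells). Of 1397 genes tested, 13 (0.931%) passed, and 91 had an unadjusted p under 0.05. Serpine2 was at 388, 436 and 309 CPM in marker-rich against 98.0, 152 and 149 CPM in marker-poor cells (log2 difference 1.28 ± 0.29), and Rgs10 differed by 0.91 ± 0.26. Tmsb4x was at 15890, 14846 and 17110 CPM against 8909, 10280 and 10219 CPM (0.66 ± 0.07) and was the 1 gene that DESeq2 also called. Lower in marker-rich cells were Car2, at 310, 327 and 381 CPM against 715, 673 and 799 CPM (-1.15 ± 0.22), the progenitor gene Plac8 (-0.86 ± 0.19) and Ptprcap (-1.59 ± 0.40). S100a8 (-4.34) and S100a9 (-5.46) also passed but not without the granulocyte-rich cells, where 5 genes passed in all. Without library b or without library c 4 genes passed.

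A split at the median Pf4 share of UMIs in each library, chosen after seeing the data, gave 64 of 1033 genes (6.2%), and 48 without the granulocyte-rich cells. Higher with Pf4 were Serpine2 (1.97 ± 0.29), Rgs10 (1.80 ± 0.25), Rap1b (1.53 ± 0.24), Sdpr (1.40 ± 0.25) and Tmsb4x (1.25 ± 0.09). Rap1b was at 313, 407 and 404 CPM in Pf4-high against 65.1, 185 and 137 CPM in Pf4-low cells, and Cd9 at 1283, 937 and 1408 CPM against 443, 640 and 674 CPM. Plac8 (-1.80 ± 0.15), Car2 (-1.06 ± 0.15) and Apoe (-1.38 ± 0.17) were lower, with Apoe at 391, 475 and 156 CPM against 1328, 1179 and 327 CPM. Mpo (-2.32 ± 0.20), Prtn3 (-1.50 ± 0.19) and S100a9 (-5.05 ± 0.19) were lower as well with all members, and 7 of the 9 granulocyte-rich cells were in the Pf4-low class. Without these cells S100a9 did not pass (-0.42 ± 0.35, edgeR adjusted p = 0.638), and Mpo and Prtn3 had too few UMIs to be tested. No S phase gene of 7 tested and no mitosis gene of 6 tested passed in this edgeR comparison.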

How the data were processed

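Single bone marrow cells were profiled with the 10x 3' v2 chemistry. The authors aligned reads to mm10 with Cell Ranger (1.3 and 2.1, per the submitters' processing notes), and the table they deposited holds raw UMI counts for 15287 genes and 12893 cells, with no normalization. No column of values was left unmapped (0). Summed UMIs of MkPs were 140731, 133002 and 522710 in libraries a, b and c, which sets the precision of low genes.

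The rule was applied to the raw counts, and erythroid progenitors were cells with at least 3 of the 6 erythroid and fewer than 3 of the 7 megakaryocyte genes. Counts were summed per library and class and tested with edgeR 4.0.16 (quasi-likelihood, TMM, filterByExpr, library as a block within Lin-kit+ marrow, Benjamini-Hochberg over all genes tested, R 4.3.3), without the 13 genes of the rule. The block was used because both classes come from the same library. The scripts were tested on simulated data. Doublets were called by Scrublet (scanpy 1.11.5) and kept. Shares of cells were also taken after thinning to 1500 UMIs.

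The members, gene lists and comparisons were chosen with earlier results of these data known. Genes were named by rule: the 10 largest changes each way against other Lin-kit+ cells and 5 each way elsewhere (at least 100 UMIs, adjusted p under 0.05, same direction in every library), up to 4 per list (at least 50 UMIs in the higher class), regulators and sort antigens. Other named genes were chosen after their values were seen. Alternatives were DESeq2 1.42.0, library totals, no filter, no block, other thresholds of the rule, thinned cells, cell filters and leaving out each library. A few genes that the rule selected are not reported here.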

Additional observations from a re-analysis of the deposited data

How the results depend on the processing

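Against other Lin-kit+ cells, 1707 genes passed in the reported fit, 872 with DESeq2, 1071 with at least 4 of the 7 genes, 925 with the rule on thinned cells, 387 with equal cell numbers in both classes and 1364 without the library block; leaving out 1 library gave 345 (without c) to 1181. Against erythroid progenitors the 1018 became 465 with DESeq2, 494 on thinned cells and 682 without the block, and 293 (without c) to 1182 with 1 library left out. Against reporter-positive cells the 1886 became 1214 with at least 4 genes, 784 on thinned cells and 584 (without c) to 2242, with 696 without Fgd5+ and 771 without HSC-Fgd5+ (either leaves 1 reporter-positive library, which is assumed to vary like the MkP libraries). The 13 genes between marker-rich and marker-poor cells became 1 with DESeq2, 1 without the block, 66 with no filter, 21 with the split on thinned cells and 4 to 13 with 1 library left out. Chosen after seeing the data, leaving out the granulocyte-rich cells gave 5, the Pf4 split 64 and both together 48. Listed genes called against other Lin-kit+ cells numbered 142, 123 without the block and 71 (without c) to 126 with 1 library left out. The mean share of MkPs was 2.97% with 2 genes, 0.695% with 4, 0.522% on thinned cells and 1.24% to 1.69% with 1 library left out.

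Of 1832 alternative values for 136 named results, 1626 kept direction and side of the threshold, 185 lost the call, 10 gained one and 11 changed sign; the cause was not tested. Against other Lin-kit+ cells, Hba-a1 was 1.76 with no erythroid limit, Mki67 -0.042 on thinned cells and Runx1 -0.32 (without c) to 1.08. Against erythroid progenitors, Gata2 was -0.024 with at least 4 genes and -0.094 (without c) to 0.36, Cd48 -0.32 to 0.036 (without c) and Slamf1 -0.29 with DESeq2. Against reporter-positive cells, Nfe2 was -0.25 to 0.12 (without a) and Runx1 -0.15 on thinned cells, -0.027 without HSC-Fgd5+ and -0.58 (without c) to 0.41. The library with most members, c (98 of 158), limits what the other libraries can show alone.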
